A study of Saccharomyces cerevisiae with 2 samples.

Results

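The genes that encode the proton pumps and P-type ATPases of Saccharomyces cerevisiae were compared between 2 strains of this budding yeast. The set was chosen by gene symbol. It takes every symbol made of VMA and a number, the V-ATPase genes VPH1, VPH2, STV1, RAV1 and RAV2, and the P-type ATPase genes PMA1, PMA2, PMC1, PMR1, SPF1, YPK9, DRS2, DNF1, DNF2, DNF3 and NEO1. It holds 31 of the 5734 listed genes, namely 15 V-ATPase subunits, 5 genes for V-ATPase assembly and 11 P-type ATPases. The series compares the transcriptome of strain 2-10515, labelled wild type, with that of Y518, labelled mutant and described in the title as rich in glutathione. Each strain was started from 1 colony, grown as a seed culture for 18 h at 30 °C with shaking at 180 rpm, moved at 10% by volume into fresh medium and harvested after a further 24 h of fermentation. The labels name no allele, mutagen or parent of either strain.

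Each strain was sequenced as 1 library, so the values below compare these 2 libraries, without a replicate check and without p-values. Uniquely mapped reads numbered 4.71 M for the wild type and 4.32 M for Y518. Levels are RPKM, which scale reads to coding length and library size, so genes can be compared per length. The fold of a gene is its share of the library's reads in one strain over that in the other, and its 95% interval is Clopper-Pearson's, exact and conditional on the summed reads, which covers counting error only. A gene was called at a difference of at least 2-fold in RPKM + 1, among the 5415 genes whose libraries averaged 5 RPKM or more. All 31 pump genes passed that minimum. The median log2 ratio of all genes tested was 0.27 in favour of Y518, so values are also given after centring on it.

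The V-ATPase is a rotary enzyme that uses ATP to push protons into the vacuole, the Golgi and endosomes. Its peripheral V1 sector splits ATP, its membrane Vo sector carries the protons, and both sectors come apart when glucose runs out. P-type ATPases are single large proteins that form a phosphorylated aspartate in each cycle. In yeast they include the plasma membrane proton pump Pma1, which sets the membrane potential that drives nutrient uptake, pumps for calcium and manganese, and flippases that move phospholipids across membranes.

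The 31 genes differed between the libraries no more often than genes in general. In Y518, 5 of them were at least 2-fold higher and 1 was lower, which is 16.1% and 3.23% of the set. Of all genes tested, 19.9% were called higher and 8.88% lower. After centring, 3 remained higher, PMA2, YPK9 and VMA10, and PMA1 remained lower, against 13.2% and 13.6% of all genes. The median absolute log2 ratio was 0.44 for the pump genes and 0.61 for all genes.

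**Figure D1:**
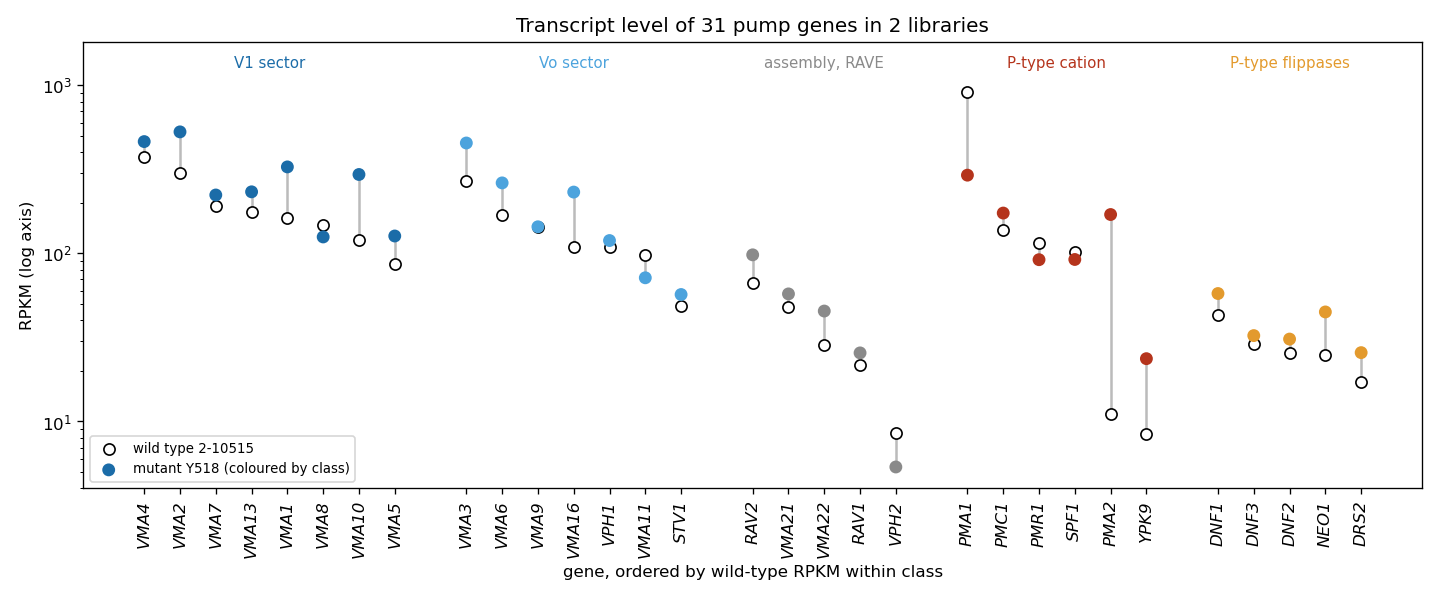
RPKM of each of the 31 genes on a log axis, with an open circle for the wild-type library and a filled circle for the Y518 library (colours mark the class), ordered by wild-type RPKM within each class. Most pairs of circles lie close together, while PMA1 drops from 917 to 292 RPKM and PMA2 climbs from 11.1 to 170 RPKM.

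The plasma membrane proton pump genes showed the widest gap of the set, and in opposite directions. PMA1 (YGL008C, chromosome VII) and PMA2 (YPL036W, chromosome XVI) encode near-equivalent pumps, and PMA1 is the essential, abundant form. Their coding sequences match at 2257 of 2756 aligned nucleotides (81.9%), so the reads of each have to be told apart. The reads were 49 nt long, since all 69 genes with a single read in a library were covered over exactly that length. Only 40 of the 2709 windows of this length in PMA1 occur unchanged in PMA2. The 90 nt around the codon of the phosphorylated aspartate, among the most conserved stretches of P-type pumps, are shown because they hold 16 differences, in capitals, by which a read can be assigned. They come from the RefSeq records of assembly R64, in coding orientation, with the aspartate codon starting at position 31 (codon 378 of PMA1 and codon 407 of PMA2):
PMA1: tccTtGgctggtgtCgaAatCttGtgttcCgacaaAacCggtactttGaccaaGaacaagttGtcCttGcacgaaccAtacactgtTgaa
PMA2: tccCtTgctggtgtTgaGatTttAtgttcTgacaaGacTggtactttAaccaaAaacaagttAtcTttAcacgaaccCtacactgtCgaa

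PMA1 had 11899 reads and 917 RPKM in the wild-type library and 3476 reads and 292 RPKM in Y518. It was therefore 3.14-fold lower in Y518 (3.02 to 3.26), with 99.4% and 99.9% of its length covered. It ranked 165th of all genes by RPKM in the wild-type library and 628th in Y518. PMA2 had 149 reads and 11.1 RPKM in the wild-type library and 2091 reads and 170 RPKM in Y518. That is 15.3-fold higher in Y518 (13.0 to 18.2), and the log2 ratio of RPKM + 1 lay above that of 99.0% of the genes tested. Reads covered 85.2% of PMA2 in the wild-type library and 99.8% in Y518.

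The balance between the pair changed more than their sum. PMA2 made up 1.24% of the reads of both genes in the wild type (exact binomial 95% interval 1.05% to 1.45%) and 37.6% in Y518 (36.3% to 38.8%). Per length, PMA1 exceeded PMA2 82.4-fold in the wild-type library and 1.71-fold in Y518. The summed level was 928 RPKM in the wild-type library and 462 RPKM in Y518, or 2.01-fold lower. The gain of 159 RPKM in PMA2 was smaller than the loss of 625 RPKM in PMA1. The log2 ratio of RPKM + 1 was -1.65 for PMA1 and 3.82 for PMA2, or -1.92 and 3.55 after centring.

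**Figure D2:**
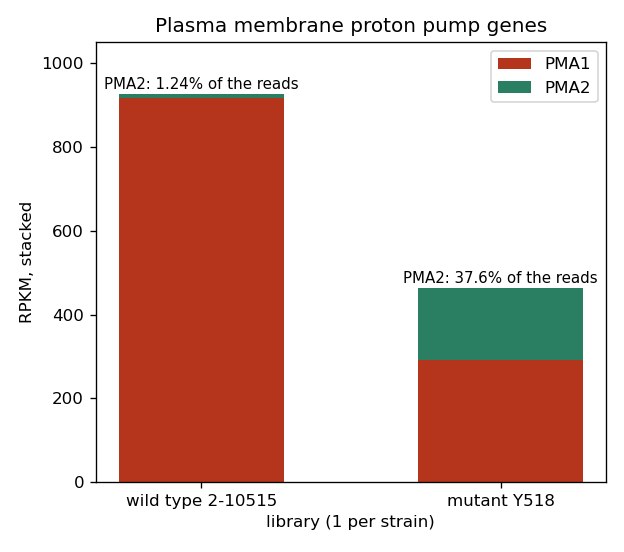
Stacked RPKM of PMA1 and PMA2 in the wild-type and Y518 libraries, 1 library per strain and no error bars. The PMA2 share of the reads is 1.24% in the wild-type library and 37.6% in Y518, and the summed bar falls from 928 to 462 RPKM.

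The nearest neighbours in the reference, chosen by position, gave mixed values. On one side of PMA1, LEU1 had 181 RPKM in the wild-type library and 115 RPKM in Y518, a log2 ratio of -0.65, and the next gene, YGL010W, had 0.87. On the other side YGL007C-A and YGL006W-A had at most 2 reads in a library. Beside PMA2, EGD1 had a log2 ratio of 0.91 and MET31 of -0.35 on one side, and YPL034W of -0.45 and SRL4 of -3.44 (63 and 2 reads) on the other. EGD1, with 207 and 390 RPKM, was the most strongly expressed of them.

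VMA1 (YDL185W, chromosome IV) encodes the catalytic subunit A of the V1 sector, and its value rests on an unusual reading frame. In the reference strain the frame is interrupted by an intein, a protein segment that cuts itself out after translation and is itself a homing endonuclease known as VDE or PI-SceI. The intein frame was located in the R64 record at coding positions 850 to 2211, which is 1362 nt or 42.4% of the listed 3216 nt. Its 2 borders are shown because the coverage of VMA1 turns on them, with 30 nt on either side and the intein side in capitals:
VMA1 intein start: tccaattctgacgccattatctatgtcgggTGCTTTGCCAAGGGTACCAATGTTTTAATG
VMA1 intein end: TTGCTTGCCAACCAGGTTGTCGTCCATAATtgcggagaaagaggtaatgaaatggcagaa

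VMA1 had 2445 reads in the wild-type library and 4540 in Y518, or 161 and 327 RPKM. Reads covered only 57.8% of the frame in the wild type, against 96.5% in Y518. This is 1858 nt in the wild type, beside 1854 nt of frame outside the intein, and it leaves 1358 nt without a read, beside 1362 nt of intein. In Y518 112 nt were without a read, so at least 1250 nt of the intein frame were covered there. The files give the share covered but not its place, so whether the bare stretch in the wild type is the intein was not tested.

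Such a gap was rare at this depth. Of 846 genes with at least 1000 reads in the wild type, 24 were covered below 90% of their length and 8 below 60%. Of 629 genes with at least 1000 reads in both libraries, coverage differed by more than 10 points for 3. VMA1 had the largest difference of these, 38.8 points. The others were FKS1, a glucan synthase gene, at 26.7 points, and ADH1, an alcohol dehydrogenase gene covered less in Y518, at -13.9 points. FKS1 and ADH1 were picked out after their values were seen.

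**Figure D3:**
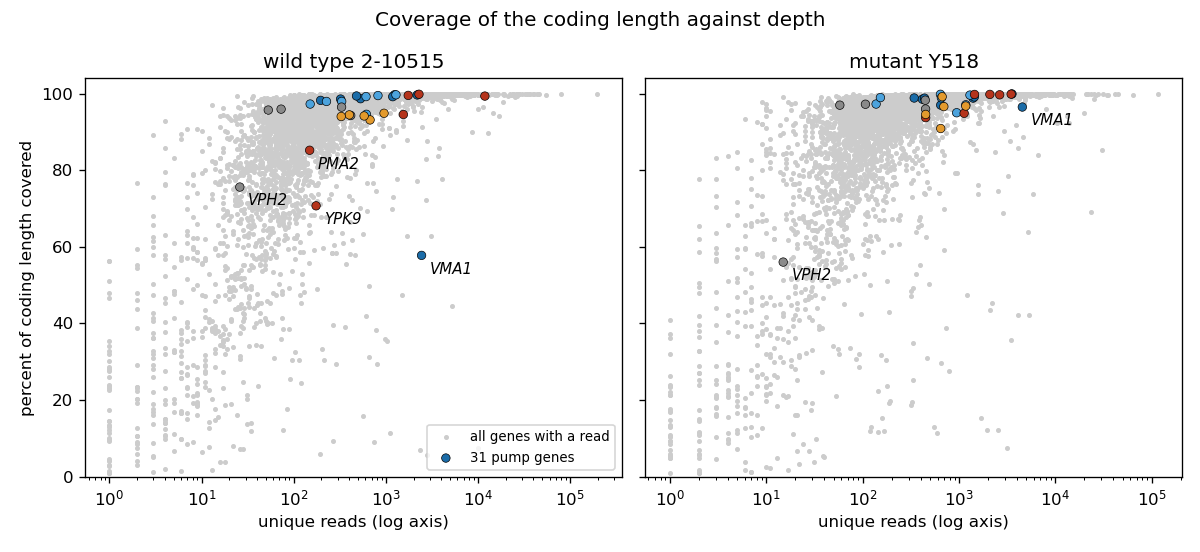
Percent of the coding length covered against unique reads (log axis) for all genes with a read (grey) and the 31 pump genes (blue shades V-ATPase subunits, large grey assembly genes, red cation pumps, orange flippases) in each library. VMA1 lies at 57.8% with 2445 reads in the wild-type library and at 96.5% in Y518. VPH2 is thinly covered on few reads in both libraries, and YPK9 in the wild-type library only.

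The fold of VMA1 depends on the length it is divided by. Over the listed length VMA1 was 2.03-fold higher in Y518 (1.93 to 2.13) with a log2 ratio of 1.01, just past the limit for a call. Over the covered length of each library the levels were 280 and 339 RPKM, a ratio of 1.21. With the wild-type reads placed over the 1854 nt outside the intein and the Y518 reads over the whole frame, the ratio was 1.17. Either choice of length, made after the data were seen, ends the call.

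In the V1 sector, the ATP-splitting head and its stalks, 2 of 8 genes were called higher, 0 lower and 6 within 2-fold. The shares were 25% and 0%, against 19.9% and 8.88% of all genes. After centring 1 was higher, against 13.2% of all genes. VMA1 was 1 of the 2, and its call did not hold over the other lengths tried above or after centring. VMA10 (YHR039C-A), subunit G of a peripheral stalk, had 196 reads and 121 RPKM in the wild-type library and 439 reads and 295 RPKM in Y518. It was 2.44-fold higher (2.06 to 2.91) and stayed at 2-fold after centring, with a log2 ratio of 1.01. VMA2, the nucleotide-binding subunit B that pairs with subunit A, had 300 and 528 RPKM, 1.76-fold higher (1.67 to 1.86), short of a call.

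The other V1 genes lay closer together. VMA5, subunit C, had 86.6 RPKM in the wild-type library and 127 in Y518, and VMA13, the regulatory subunit H, had 176 and 232 RPKM. VMA4, subunit E of the peripheral stalks, had 376 and 463 RPKM, 1.23-fold higher (1.14 to 1.33). Its log2 ratio was 0.02 after centring. VMA7, subunit F of the central stalk, had 192 and 223 RPKM, and its interval of 0.99 to 1.35 included no difference. VMA8, subunit D of the central stalk, was the 1 V1 gene with a ratio below 1. It had 147 RPKM in the wild-type library and 125 in Y518, 1.17-fold lower (1.03 to 1.33).

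The spread among V1 genes was similar in both libraries. The highest of the 8 exceeded the lowest 4.34-fold in the wild-type library and 4.22-fold in Y518. VMA4 and then VMA2 led in the wild type, and VMA2 and then VMA4 in Y518. The lowest was VMA5 in the wild-type library and VMA8 in Y518, where VMA5 and VMA8 lay at 127 and 125 RPKM.

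In the Vo sector, the membrane ring and its partners, 1 of 7 genes was called higher (14.3%, against 19.9% of all genes) and 0 lower. VMA16 (YHR026W), subunit c'' of the proteolipid ring, had 332 reads and 110 RPKM in the wild-type library and 642 reads and 232 RPKM in Y518. It was 2.11-fold higher (1.84 to 2.42), and its log2 ratio of 1.07 became 0.80 after centring, below a call. VMA3, which encodes the main ring subunit c, had 271 and 454 RPKM, 1.67-fold higher (1.51 to 1.86). VMA11, the ring subunit c', went the other way with 97.4 and 71.6 RPKM, 1.36-fold lower in Y518 (1.10 to 1.68).

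The 3 ring genes thus differed in proportion between the libraries. VMA16 exceeded VMA11 per length 1.13-fold in the wild-type library and 3.24-fold in Y518. VMA3 exceeded VMA11 2.78-fold and 6.34-fold, and VMA3 exceeded VMA16 2.47-fold and 1.96-fold. No ring gene shared a 49-nt window with another place in the genome.

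VPH1 and STV1 encode alternative forms of the large subunit a, which direct the enzyme to the vacuole and to the Golgi and endosomes. VPH1 had 109 RPKM in the wild-type library and 119 in Y518, and STV1 had 48.5 and 56.9 RPKM. VPH1 exceeded STV1 2.24-fold in the wild-type library and 2.09-fold in Y518, so the balance of the alternative forms was close in both libraries. VMA6, subunit d, had 168 and 263 RPKM, 1.56-fold higher (1.43 to 1.71). VMA9, the small subunit e, had 151 and 138 reads, or 144 RPKM in each library.

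Of the 5 genes that assemble the enzyme, 0 were called in either direction, against 19.9% of all genes called higher and 8.88% lower. VMA21, VMA22 and VPH2 encode proteins of the endoplasmic reticulum that help to build the Vo sector, and RAV1 and RAV2 encode subunits of RAVE, the complex that rejoins V1 to Vo. RAV2 had 66.6 RPKM in the wild-type library and 98.0 in Y518, 1.47-fold higher (1.27 to 1.70), and RAV1 had 21.7 and 25.6 RPKM. VMA22 had 73 and 107 reads, 1.60-fold higher (1.18 to 2.18). VMA21 had 53 and 58 reads, and its interval of 0.81 to 1.77 included no difference. VPH2 was the lowest pump gene of the Y518 library. It had 26 reads and 8.52 RPKM in the wild-type library and 15 reads and 5.36 RPKM in Y518, with 75.6% and 56.0% of its length covered. A difference was not detectable for VPH2 at this depth (ratio 0.63, interval 0.31 to 1.23).

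**Figure D4:**
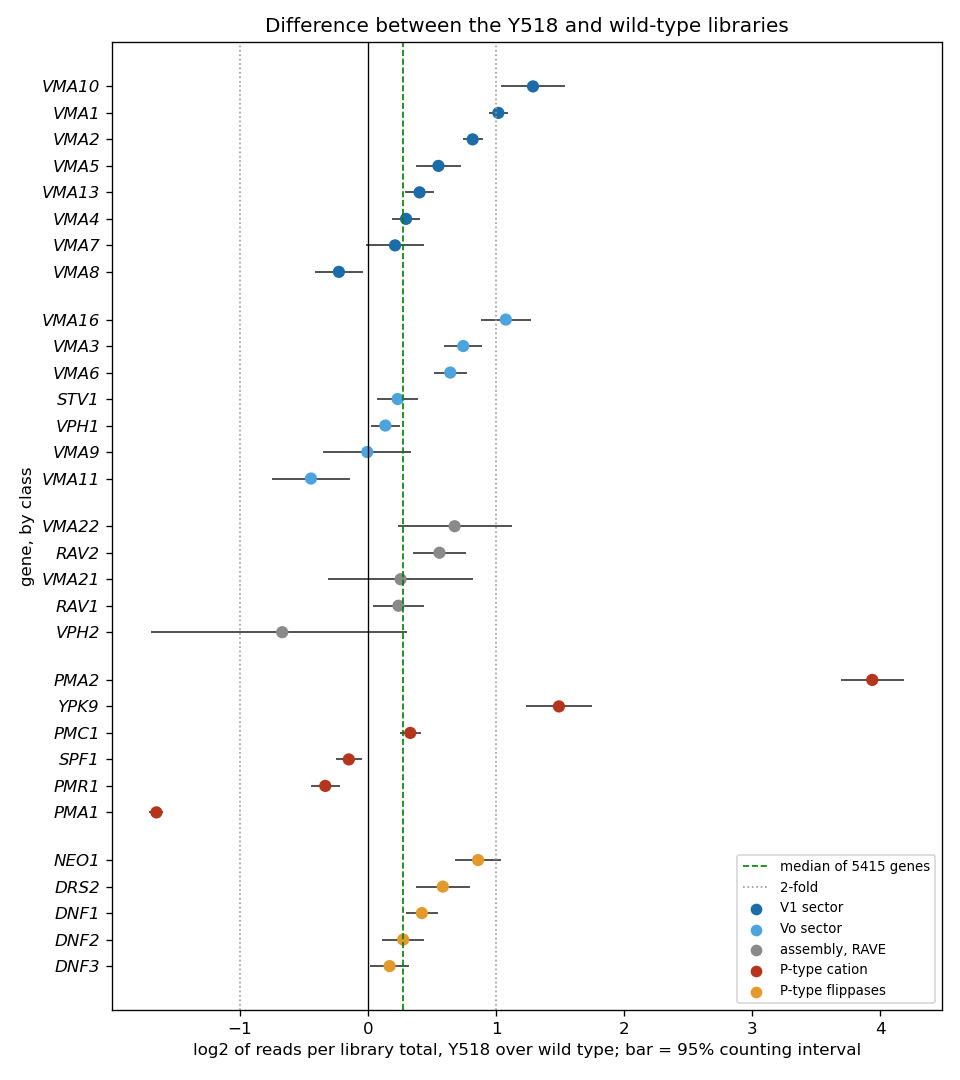
Log2 of reads per library total in Y518 over the wild type for each of the 31 genes, with bars for the 95% counting interval, a dashed line at the median log2 ratio of all 5415 genes (0.27, computed on RPKM + 1) and dotted lines at 2-fold. PMA2, YPK9, VMA10, VMA16 and, just past it, VMA1 lie to the right of the 2-fold line and PMA1 to the left. The V-ATPase genes spread between 1.36-fold lower (VMA11) and 2.44-fold higher (VMA10), apart from VPH2 with its wide bar.

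Among the cation pumps outside the PMA pair, YPK9 was called higher. YPK9 (YOR291W, chromosome XV), a vacuolar P-type ATPase linked to metal tolerance, had 175 reads and 8.41 RPKM in the wild-type library and 451 reads and 23.6 RPKM in Y518. It was 2.81-fold higher (2.36 to 3.37), and its log2 ratio of 1.39 became 1.12 after centring. It was the lowest pump gene of the wild-type library and was covered over 70.7% of its length there and 93.8% in Y518.

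The calcium pump genes PMC1 and PMR1 were within 2-fold, as was SPF1. PMC1, the vacuolar calcium pump, had 138 RPKM in the wild-type library and 174 in Y518, 1.26-fold higher (1.19 to 1.33). After centring its log2 ratio was 0.06. PMR1, the Golgi calcium and manganese pump, had 116 and 91.7 RPKM, 1.26-fold lower (1.17 to 1.36), or a log2 ratio of -0.60 after centring. PMR1 shares 181 nt with HUR1 on the opposite strand, and the sources do not say whether strand was used in counting. PMC1 exceeded PMR1 1.89-fold per length in Y518, a wider margin than the 138 over 116 RPKM of the wild type. SPF1, a P-type ATPase of the endoplasmic reticulum, had 102 and 92.0 RPKM, 1.11-fold lower (1.03 to 1.19).

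The order of the pumps by level changed with the PMA pair. PMA1 exceeded PMC1, the next cation pump gene, 6.63-fold per length in the wild-type library and 1.68-fold in Y518. PMC1 exceeded PMA2 12.4-fold in the wild type, and in Y518 both were at the same level (174 and 170 RPKM).

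The 5 flippase genes all had ratios above 1, and 0 were called, against 19.9% of all genes called higher and 8.88% lower. NEO1, the essential flippase of Golgi and endosomes, had 24.7 RPKM in the wild-type library and 44.8 in Y518, 1.81-fold higher (1.60 to 2.06). DRS2, the flippase of the late Golgi, had 17.1 and 25.7 RPKM, a log2 ratio of 0.56 (interval of the fold 1.30 to 1.73). DNF1 had 43.1 and 57.7 RPKM and DNF2 25.5 and 30.9 RPKM, the pair being plasma membrane flippases. DNF3, of the Golgi, had 28.8 and 32.4 RPKM, 1.12-fold higher (1.01 to 1.25). After centring, DNF2 and DNF3 had log2 ratios of -0.01 and -0.11, so the shared direction depended on the scaling.

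NEO1 is the 1 pump gene on chromosome IX, where the 196 genes tested had a median log2 ratio of 1.01. NEO1, at 0.83, lay below that median. The median of every other chromosome lay between -0.11 (chromosome V) and 0.41 (chromosome I). PMA1 and PMC1 lie on chromosome VII with a median of 0.05, and PMA2 lies on chromosome XVI with a median of 0.08.

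V-ATPase subunits and P-type pumps had similar medians and similar interquartile ranges of the log2 ratio (0.61 and 0.69), and the wider range of the P-type pumps came from PMA1 and PMA2. The 15 V-ATPase subunits had a median log2 ratio of 0.40, with 3 called higher (20%) and 0 lower. The 11 P-type pumps had a median of 0.33, with 2 higher (18.2%) and 1 lower (9.09%). Of all genes tested, 19.9% were called higher and 8.88% lower. After centring, 1 V-ATPase subunit remained higher, VMA10, and the calls of VMA1 and VMA16 were lost. Relative to all genes the medians of the V-ATPase subunits and P-type pumps were 0.13 and 0.06. Single V-ATPase subunits ranged from -0.44 to 1.28 and P-type pumps from -1.65 to 3.82. Without PMA1 and PMA2, left out after their values were seen, the P-type pumps ranged from -0.33 to 1.39 around the same median of 0.33. V1 genes had a median of 0.47 and Vo genes of 0.23, with 6 of 8 and 3 of 7 above the median of all genes.

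As shares of a library, the classes differed in opposite directions, and with VMA1 included their order was reversed in Y518. The V-ATPase subunits took 0.269% of all reads in the wild-type library and 0.412% in Y518, and VMA1 was the largest single part with 2445 and 4540 reads. In Y518 the V-ATPase subunits had 17786 reads and the P-type pumps 14876, a gap smaller than the VMA1 reads. Without VMA1, left out after its values were seen, the order was therefore not reversed. The P-type pumps took 0.441% and 0.345%. PMA1 and PMA2 made up 0.256% and 0.129% of the library, and the other P-type pumps 0.185% and 0.216%.

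Lists of genes that act with the pumps put these values in context. Of 62 such genes tested, 10 were called higher (16.1%) and 2 lower (3.23%), against the 19.9% and 8.88% of all genes given above. After centring these were 7 and 5, against 13.2% and 13.6% of all genes. Both counts of higher genes include ENA1 and ENA5, which are uncertain for the reasons given below. The median log2 ratio of 0.32 was close to the 0.27 of all genes.

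Regulators and partners of Pma1 included the 2 genes called lower. HSP30, a stress-induced plasma membrane protein that restrains Pma1, had 40654 reads and 8643 RPKM in the wild-type library and 9588 reads and 2223 RPKM in Y518, 3.89-fold lower (3.80 to 3.98). PMP2, a small proteolipid bound to Pma1, had 111 and 30 reads, 3.39-fold lower (2.25 to 5.26). Its twin PMP1 had 606 and 354 reads, 1.57-fold lower (1.37 to 1.79). PTK2, a kinase that activates Pma1, was 1.75-fold lower (1.64 to 1.87) and passed 2-fold only after centring.

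Other genes of that list were higher or close. PMP3, a small membrane protein that affects the membrane potential, was 3.61-fold higher on 345 and 1141 reads (3.19 to 4.08). EXP1, which helps Pma1 leave the endoplasmic reticulum, was 2.39-fold higher on 105 and 230 reads (1.89 to 3.04) and below 2-fold after centring. The median of the 14 genes was 0.07. Calls numbered 2 higher and 2 lower (14.3% each, against 19.9% and 8.88% of all genes). Centring left 1 higher and made 3 lower, against 13.2% and 13.6% of all genes.

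Of the P-type pump genes outside the set, CCC2, the Golgi copper pump, was 2.36-fold higher on 426 and 920 reads (2.10 to 2.65), though below 2-fold after centring, and PCA1, a cadmium exporter, had a ratio of 1.47. The sodium pump genes ENA1 (12 reads in the wild type, 166 in Y518) and ENA5 (1 and 545 reads) also passed the limit. Of their 49-nt windows 88.6% and 91.3% occur elsewhere in the genome, and at most 13.0% of either was covered, so both are uncertain and no fold is given. ENA2 was not matched.

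Other V-ATPase factors had 1 of 7 genes called higher (14.3%, against 19.9% of all genes) and 0 lower (against 8.88%). The called gene was PKR1, an assembly factor of the endoplasmic reticulum, with 35 and 76 reads. It was 2.37-fold higher (1.57 to 3.64), and below 2-fold after centring. The 9 flippase subunits and kinases had 0 genes called in either direction, against the same shares of all genes, and a median of 0.03. Their extremes were DOP1, a partner of Neo1, with a ratio of 1.39, and KIN82, a flippase kinase, 1.28-fold lower.

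The list of 12 calcium handling genes had a median of 0.46. Called higher were 2 genes (16.7%, against 19.9% of all genes) and lower 0 (against 8.88%). ECM7, a regulator of the plasma membrane calcium channel, was 4.19-fold higher on 52 and 200 reads (3.08 to 5.81). CCH1, the channel itself, was 2.91-fold higher on 146 and 389 reads (2.40 to 3.54). Both remained past 2-fold after centring. The calcineurin genes CNA1, CMP2 and CNB1 had ratios of 1.60, 0.75 and 1.13.

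Of 16 transporters of the vacuole and endosomes tested, many of which run on the proton gradient, 2 were higher and 0 lower. The shares were 12.5% and 0%, against 19.9% and 8.88% of all genes. PHO91, a vacuolar phosphate transporter, was 3.48-fold higher on 267 and 853 reads (3.03 to 4.01). VBA1, a vacuolar transporter of basic amino acids, was 3.35-fold higher on 205 and 629 reads (2.85 to 3.94). After centring AVT3, a vacuolar amino acid exporter, and GEF1, an endosomal chloride channel, were lower, with centred log2 ratios of -1.03 and -1.04. VBA3 has a near-identical copy, VBA5, and did not reach the minimum level, with 8 reads in the wild-type library and 0 in Y518.

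**Figure D5:**
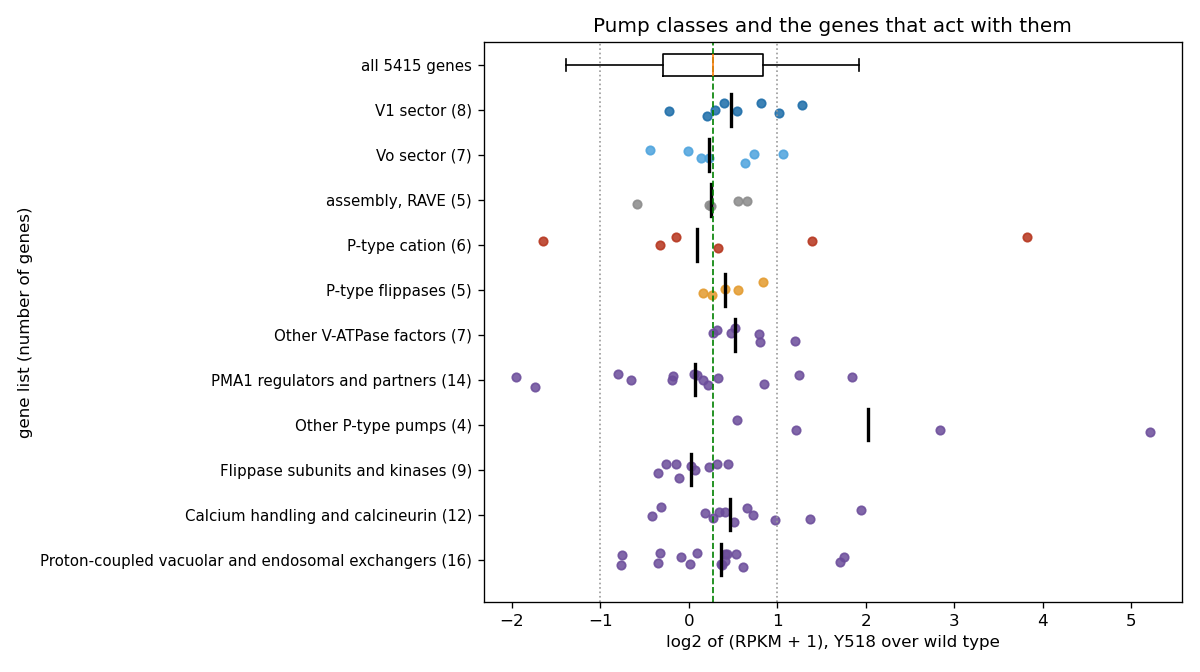
Log2 ratio of RPKM + 1, Y518 over the wild type, for each gene (points, spread vertically for sight) of the 5 pump classes and 6 lists of associated genes, with a black bar at each median and, on top, a box for all 5415 genes tested (quartiles, whiskers at the 5th and 95th percentile). The dashed line is the median of all genes and the dotted lines 2-fold, and the pump classes centre near the dashed line with PMA1 (-1.65) and PMA2 (3.82) far from it.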

How the data were processed

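The deposited series table lists 5734 coding sequences as RefSeq transcript records. Per the file headers, 3 values are given per gene and library, namely the count of reads mapped uniquely, their coverage as a percent of gene length, and an RPKM. The deposited RPKM equalled count over length and library total (0 mismatches beyond a relative difference of 1e-06), and counts matched the single-library tables and the shorter series table (0 mismatches). The aligner, the counting tool, its use of strand and the build were not given in the sources used here, so no coordinates are printed. Columns of other samples numbered 0.

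From these values, log2 ratios of RPKM + 1 were computed, where the added 1 RPKM understates the change of low genes. Scaling alternatives used TMM (edgeR 4.0.16) and size factors (DESeq2 1.42.0). The 2-fold rule and the counting interval were tried on simulated libraries with known folds that held counting error only. Spread between cultures was not simulated, so the trial does not stand in for replicates. Sequences came from the R64 RefSeq records, whose version and coding length matched for all 31 genes. Near-identical copies (at least 95% identity over 100 nt) were sought with BLAST+ 2.17.0, and 49-nt windows were counted over both strands of the genome. Every pump gene is named, as is every called gene of the 6 associated lists, or else the extremes of a list. Of 64 associated genes 63 were matched by locus, with YNR048W taken for CRF1, a symbol the table gives to another gene. The genes and lists were chosen with earlier results of these data known. PCR duplicates are not independent molecules.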

Additional observations from a re-analysis of the deposited data

How the results depend on the processing

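No paired analysis was possible because each strain has 1 library. The call of PMA2 as higher and of PMA1 as lower held under every scaling, pseudocount, RPKM minimum and call limit tried. The number of pump genes called higher was 5, and 3 after centring, with TMM or with DESeq2 size factors, since VMA1 and VMA16 were lost. It was 10 at a 1.5-fold limit, 1 at 3-fold, and 2 without genes covered below 90%, which leaves out PMA2, YPK9, VMA1 and VPH2. The median log2 ratio of V-ATPase subunits was 0.13 after centring, 0.14 with TMM and 0.12 with DESeq2 size factors, and that of P-type pumps 0.0559, 0.0660 and 0.0515. Of the 5415 genes tested, 714 were higher and 737 lower after centring and 710 and 729 with DESeq2 size factors, against 1076 and 481. At 1.5-fold these were 1912 and 886, and at 3-fold 451 and 209. TMM gave 729 and 712. Of the associated genes, 5 were lower after centring, with TMM or with DESeq2 size factors. At 1.5-fold 17 were higher and 6 lower, and at 3-fold 6 were higher, with the uncertain ENA1 and ENA5 among the higher genes at both limits. Of 186 values of single pump genes under the 6 settings that can move them, 83 moved beyond the counting interval. For called genes 0 values changed sign, but values of genes within 2-fold did. After centring, the log2 ratios of VMA7, STV1, VPH1, RAV1, VMA21, DNF2 and DNF3 turned from positive to negative, that of VPH1 from 0.14 to -0.14. No pump gene had a near-identical copy. The spread between cultures was not measured, and low counts limit VPH2, VMA21 and VMA22.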
